A study of Mus musculus with 24 samples.

Results

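The genes described here are 31 genes of cholesterol synthesis, uptake and efflux, chosen by symbol in both deposited count tables, out of 38013 genes that the tables share. They comprise 17 genes of sterol synthesis, 4 genes that control the transcription factor SREBP2, 5 genes of cholesterol uptake and handling, and 5 genes of the liver X receptor (LXR) pathway and of efflux. All 31 were measured in every library, with at least 43 counts each. The tissue was inguinal subcutaneous white fat of C57BL/6J mice with a transgene that encodes γ1, a regulatory subunit of the energy sensor AMP-activated protein kinase (AMPK). The transgene was wild-type in WT-Tg mice and had the gain-of-function form D316A in D316A-Tg mice, so that every group was transgenic. The promoter of the transgene is not given in the sources used here. RNA was sequenced from 6 libraries each of WT-Tg and D316A-Tg mice fed chow (16 weeks of age) and of WT-Tg and D316A-Tg mice fed a 45% high-fat diet (HFD, 24 weeks of age). Nothing in the labels ties each library to its own animal, so a p-value here measures the spread between samples, part of which may be technical.

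Cells make cholesterol from acetyl-CoA through mevalonate, farnesyl diphosphate, squalene and lanosterol. When membrane sterol is low, the escort protein Scap carries SREBP2, the product of Srebf2, to the Golgi, where it is cut and released to the nucleus to turn on the synthesis genes. The Insig proteins hold Scap in the endoplasmic reticulum when sterol is plentiful. Oxidised sterols and late synthesis intermediates bind LXR, which turns on the cholesterol exporters Abca1 and Abcg1 and Mylip, a ubiquitin ligase for lipoprotein receptors. White fat is a large store of free cholesterol, held in the adipocyte membranes and at the lipid droplet surface, and active AMPK is known to restrain sterol synthesis when energy is short.

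Libraries of the same group differed in markers of other cell types, although per the labels the inguinal lymph node was taken out. The mean log2 CPM (read counts scaled to library size) of 10 B lymphocyte markers was 4.17 or more in 11 libraries, called lymphocyte-rich here, and 1.75 or less in the other 13. The 11 were WT-Tg chow 1, 2, 3 and 4, D316A-Tg chow 8 and 11, WT-Tg HFD 3 and D316A-Tg HFD 7, 8, 9 and 11. The mean of 10 skeletal muscle markers ranged from 0.10 to 3.70 in WT-Tg HFD and from 3.59 to 9.55 in D316A-Tg HFD, and from -0.69 to 8.32 and from -0.84 to 5.12 in the chow groups. The mean of 12 macrophage markers ranged from 4.73 to 6.83, 4.16 to 5.87, 5.74 to 7.45 and 4.70 to 6.48 in WT-Tg chow, D316A-Tg chow, WT-Tg HFD and D316A-Tg HFD. The 10 adipocyte markers had means of 9.73 or more in every library, the highest of the 8 marker lists. In whole tissue, fewer cells of a type and less RNA per cell cannot be told apart. Diet, age, feeding cohort and base-calling version changed together and cannot be told apart either. Library totals were 13254536 to 22748132 counts.

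RefSeq promoter windows (GRCm38.p6, 250 bases before to 50 after a start site) were on hand for 24 of the 31 genes. Known sterol-regulated promoters pair a sterol regulatory element with a CCAAT box, which binds the factor NF-Y. Windows of 3 synthesis genes whose levels carry the results below, and of the exporter gene Abca1 for contrast, are printed 5′ to 3′ in the direction of the gene. Capitals mark CCAAT (or ATTGG on the opposite strand) and the sterol regulatory element core TCACNCCAC. They lie at chr13:119690101-119690400 (plus strand) for Hmgcs1, chr13:8885356-8885655 (plus) for Idi1, chr5:4104648-4104947 (minus) for Cyp51 and chr4:53159846-53160145 (minus) for Abca1.
Hmgcs1: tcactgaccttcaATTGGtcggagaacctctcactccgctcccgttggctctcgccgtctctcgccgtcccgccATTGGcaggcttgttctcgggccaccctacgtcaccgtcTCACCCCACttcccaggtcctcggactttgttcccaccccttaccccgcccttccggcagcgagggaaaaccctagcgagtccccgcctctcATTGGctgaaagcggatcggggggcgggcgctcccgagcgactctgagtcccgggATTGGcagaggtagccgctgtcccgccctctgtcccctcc
Idi1: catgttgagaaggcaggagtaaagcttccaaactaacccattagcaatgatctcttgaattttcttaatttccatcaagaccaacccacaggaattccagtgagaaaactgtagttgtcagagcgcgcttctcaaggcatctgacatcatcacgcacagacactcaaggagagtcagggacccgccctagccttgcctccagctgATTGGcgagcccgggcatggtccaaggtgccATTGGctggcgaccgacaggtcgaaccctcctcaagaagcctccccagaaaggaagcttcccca
Cyp51: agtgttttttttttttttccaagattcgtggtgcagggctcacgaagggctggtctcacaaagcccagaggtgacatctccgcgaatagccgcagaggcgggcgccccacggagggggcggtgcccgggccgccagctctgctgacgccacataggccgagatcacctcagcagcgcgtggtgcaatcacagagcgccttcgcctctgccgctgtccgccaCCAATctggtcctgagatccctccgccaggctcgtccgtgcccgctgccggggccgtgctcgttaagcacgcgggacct
Abca1: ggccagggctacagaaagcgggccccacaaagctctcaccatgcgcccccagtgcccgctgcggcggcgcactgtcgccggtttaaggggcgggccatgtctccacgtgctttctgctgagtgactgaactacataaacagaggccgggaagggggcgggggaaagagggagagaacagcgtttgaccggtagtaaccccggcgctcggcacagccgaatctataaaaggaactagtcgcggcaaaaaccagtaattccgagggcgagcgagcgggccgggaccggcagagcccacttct
The Hmgcs1 window held the element core 137 bases before the start and 4 CCAAT boxes, the Idi1 window 2 boxes, the Cyp51 window 1 box 29 bases before the start, and the Abca1 window none. A CCAAT box on either strand was found for 13 of 14 synthesis genes with a window (92.9%) and 1 of 4 LXR and efflux genes (25.0%), against 41.1% of 27025 genes with a window. The element core was found for 1 of 14 synthesis genes, against 1.4% of all genes. The LXR direct repeat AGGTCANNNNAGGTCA was in none of the 24 windows and in those of 4 of all genes. Only these exact letters were searched (N for any base), so a variant of an element was not counted. A window without a match, such as that of Abca1, may still hold a working element. A match describes letters in a window and is no proof of binding.

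On chow, synthesis genes were higher in D316A-Tg than in WT-Tg fat. Of all 31 genes, 8 rose and none fell (edgeR quasi-likelihood test, Benjamini-Hochberg adjusted p below 0.05 over 15249 genes), where 5.3% of all genes rose and 3.25% fell. Those 8 were 7 of the 17 synthesis genes and Abca1. At an unadjusted p below 0.05, 16 were higher and 4 lower, and DESeq2 called 12 higher and 2 lower. The shares of all genes at an unadjusted p, under DESeq2 or in refits with other settings or libraries are not given, here or below. Counts of those kinds are thus not set against a background. All 17 synthesis genes had a positive log2 fold change, from 0.10 to 1.20 with a median of 0.78, beside a median of -0.07 over all genes tested.

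Idi1, the isomerase that makes the second building block of isoprenoids, was at 2.58, 3.43 and 4.82 CPM (lowest, median and highest library) in WT-Tg chow and at 5.39, 6.76 and 11.9 CPM in D316A-Tg chow. Every D316A-Tg library was above every WT-Tg library, and the difference was 2.12-fold (log2 fold change 1.09, SE 0.23, adjusted p = 0.0227). Cyp51, the lanosterol demethylase, had values of 24.5, 30.8 and 39.0 CPM in WT-Tg and 39.6, 50.9 and 92.0 CPM in D316A-Tg, again without overlap (1.88-fold, log2 0.91, SE 0.22, adjusted p = 0.0312). Between the genotypes on chow, 2.25% of all genes tested were higher and 1.83% lower without overlap. Acat2, the thiolase that condenses acetyl-CoA, showed the largest fold among the 8: its libraries were at 47.3, 65.6 and 103 CPM in WT-Tg and 83.0, 183 and 238 CPM in D316A-Tg (2.30-fold, log2 1.20, SE 0.27, adjusted p = 0.0279). Its genotypes overlapped in range, since the lymphocyte-rich D316A-Tg libraries were at 83.0 to 110 CPM and the other WT-Tg libraries at 91.7 to 103 CPM.

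Nsdhl, which takes part in removing methyl groups from the sterol ring, had a median of 37.0 CPM in WT-Tg (26.4 to 61.5) and 90.2 CPM in D316A-Tg (50.2 to 123), a 2.08-fold difference. Lss, the cyclase that forms lanosterol, went from a median of 30.0 CPM (28.3 to 55.7) to 61.1 CPM (44.5 to 106), or 1.81-fold. Sqle, the squalene epoxidase, had medians of 14 and 26.4 CPM (1.71-fold), and Tm7sf2, a sterol reductase, 10.4 and 17 CPM (1.59-fold). Adjusted p was 0.0362, 0.0491, 0.0479 and 0.0357 for Nsdhl, Lss, Sqle and Tm7sf2, and the ranges of the genotypes overlapped for each. Fdft1, the squalene synthase, had a similar size of difference (1.88-fold, log2 0.91, SE 0.28) and did not pass the test (adjusted p = 0.0579). Hmgcs1, which makes HMG-CoA, had medians of 171 and 283 CPM (log2 0.47, SE 0.28, adjusted p = 0.266). The other 8 synthesis genes had log2 fold changes from 0.10 (Dhcr7) to 0.88 (Pmvk) and were not called.

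The chow calls moved with single libraries, and the share of all genes called in each refit is not given. None of the 8 held its call without each library in turn, while all 8 kept their direction. The count of called genes fell to 0 without D316A-Tg chow 7 or 12 (18 and 16 at an unadjusted p below 0.05), to 1 without WT-Tg chow 2, 3 or 4 or D316A-Tg chow 9, and to 2 without WT-Tg chow 1 or D316A-Tg chow 10, and it rose to 13 without WT-Tg chow 6 and 14 without D316A-Tg chow 8. With the 6 lymphocyte-rich libraries left out, which left 2 WT-Tg libraries, 7 genes were called and the synthesis median was 0.59. Of those 7, 3 (Acat2, Nsdhl and Abca1) were among the 8. In all 12 chow libraries, Mvk, Pmvk, Fdps, Ebp and Sc5d were lower in each of the 6 lymphocyte-rich libraries than in each of the other 6. With the B lymphocyte score as a covariate 12 genes were called and the synthesis median was 0.52, and with the skeletal muscle score 2 were called and the median was 0.92. In the same comparison 0.66 was the median log2 fold change of the 10 adipocyte markers, none of which was called. Lower medians without a call were seen for muscle (-3.90, 7 of 9 at an unadjusted p below 0.05), B lymphocyte (-1.61, 0 of 10) and macrophage markers (-0.86, 5 of 12), and the endothelial median was -0.76 with 1 of 6 called. With the macrophage and adipocyte scores as covariates, a setting chosen after the data were seen, 7 genes were called and the synthesis median was 0.36.

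**Figure D1:**
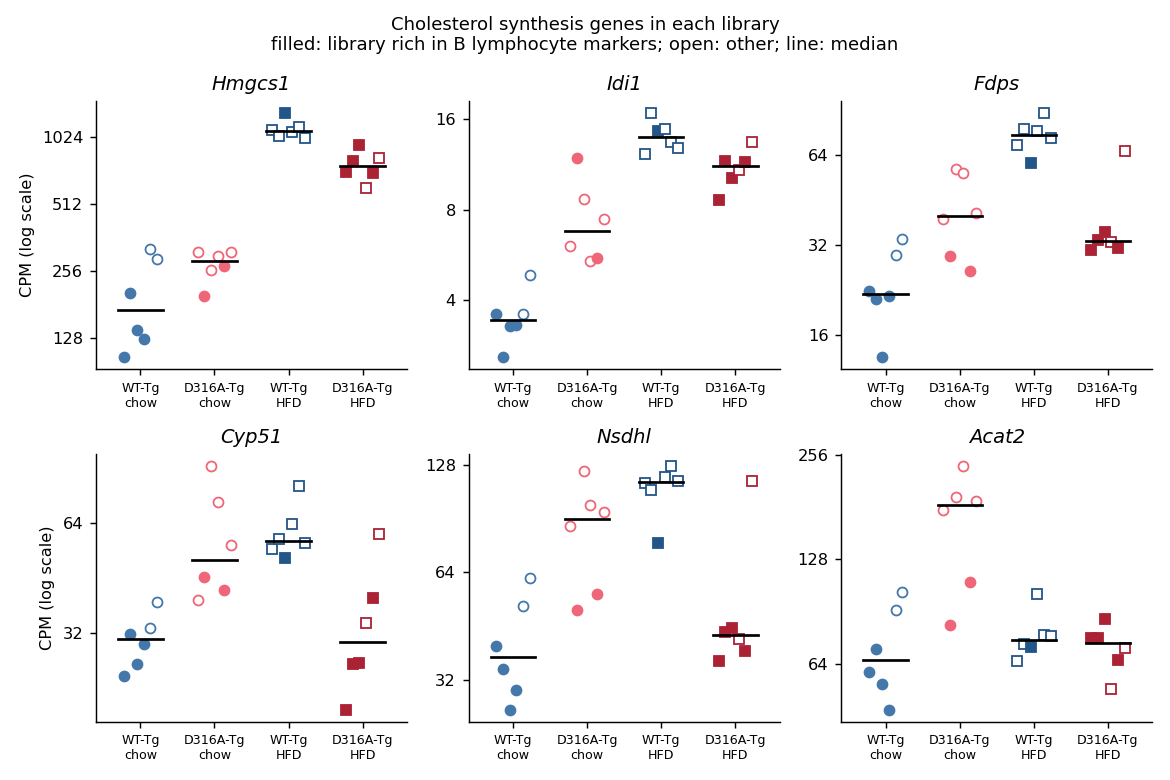
CPM on a log axis for 6 synthesis genes, 1 symbol per library (circles chow, squares HFD; filled where B lymphocyte markers were high), with the group median as a line. On chow the D316A-Tg libraries of Idi1 and Cyp51 lie above all WT-Tg libraries, and D316A-Tg HFD 12 stands at 66.0 CPM for Fdps and 115 CPM for Nsdhl, apart from the other 5 libraries of its group.

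On HFD the direction was the opposite. Of the 31 genes, none rose and 10 fell in D316A-Tg, where 4.51% of 14649 genes tested rose and 3.96% fell. The 10 were 9 synthesis genes (Hmgcs1, Pmvk, Mvd, Fdps, Sqle, Lss, Cyp51, Nsdhl and Dhcr7) and the cytosolic sterol carrier Stard4. At an unadjusted p below 0.05, 16 were lower and 2 higher, and DESeq2 called 12, all lower. The median log2 value of the synthesis genes was -0.51, with 16 of 17 below 0, beside 0.01 over all genes tested.

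Hmgcs1 was at 1010, 1090 and 1310 CPM in WT-Tg HFD and at 600, 754 and 943 CPM in D316A-Tg HFD. No D316A-Tg library reached the lowest WT-Tg library, and the level was 1.47-fold lower (log2 -0.56, SE 0.12, adjusted p = 0.0226). Between the genotypes on HFD, 1.69% of all genes tested were higher and 1.68% lower without overlap. Fdps, the farnesyl diphosphate synthase, was at 60.1, 74.6 and 88.1 CPM in WT-Tg and 30.7, 32.9 and 66.0 CPM in D316A-Tg (1.96-fold lower, log2 -0.97, SE 0.19, adjusted p = 0.0198). Of its D316A-Tg libraries, 5 lay between 30.7 and 35.2 CPM and number 12 at 66.0 CPM, within the WT-Tg range. Nsdhl fell 2.09-fold (log2 -1.06, SE 0.28, adjusted p = 0.0385), from 77.2, 115 and 127 CPM to 36.0, 42.7 and 115 CPM, and again only library 12 overlapped with WT-Tg. Lss fell 1.83-fold (medians 93.8 and 42.2 CPM, adjusted p = 0.0483) and had the same library at 105 CPM, inside the WT-Tg range of 75.5 to 116 CPM.

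Mvd, which makes isopentenyl diphosphate, had medians of 17.7 and 9.08 CPM (1.78-fold lower, adjusted p = 0.0285), and Dhcr7, which reduces 7-dehydrocholesterol to cholesterol, 33.6 and 16.3 CPM (1.75-fold lower, adjusted p = 0.0283). Sqle fell from 25.6 to 15.6 CPM, Pmvk, the phosphomevalonate kinase, from 95.9 to 65.4 CPM, and Cyp51 from 57.3 to 30.4 CPM in medians, with adjusted p of 0.0393, 0.0403 and 0.0488. In each of these 5 genes the ranges of the genotypes overlapped. Acat2, called on chow, had medians of 75.0 and 73.4 CPM on HFD (log2 -0.13, SE 0.12, adjusted p = 0.435). Fdft1 alone among the synthesis genes had a positive value on HFD (log2 0.17, SE 0.10, adjusted p = 0.279).

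These HFD calls were lost once markers of other cells entered the fit. The muscle score nearly followed genotype on HFD: only the highest WT-Tg library (3.70) exceeded the lowest D316A-Tg library (3.59). Of the 5 lymphocyte-rich HFD libraries, 4 were D316A-Tg. Scores tied to genotype take precision from its test, so the lost calls cannot decide whether cell content accounts for the differences. None of the 31 genes was called with the B lymphocyte score as a covariate, with the muscle score, or with the 5 lymphocyte-rich libraries left out, which left 2 D316A-Tg libraries. In these 3 fits 12, 0 and 5 genes had an unadjusted p below 0.05. The synthesis median was then -0.40, -0.21 and -0.40, and all 10 genes kept their direction. With both scores together, or with the macrophage and adipocyte scores, again none was called, both settings being chosen after the data were seen (2 and 8 genes at an unadjusted p below 0.05). With both the B lymphocyte and the muscle score the synthesis median was 0.11 and 6 of the 10 genes kept their direction. In D316A-Tg HFD all 10 muscle markers were called higher, with a median log2 fold change of 6.17, and 4 of 12 macrophage markers lower. The 6 endothelial markers were all below 0, with a median of -0.74 and 3 called lower (mean log2 CPM of 6.20 to 6.54 in WT-Tg libraries, 5.30 to 6.22 in D316A-Tg libraries), and their part in these calls was not tested. Among single libraries, leaving out WT-Tg HFD 5 or D316A-Tg HFD 8 left 2 called genes, leaving out WT-Tg HFD 1, 2, 4 or 6 or D316A-Tg HFD 7 or 9 left 3, and leaving out D316A-Tg HFD 10 or 11 left 5, while 18 were called without D316A-Tg HFD 12. Fdps and Hmgcs1 kept their calls without any 1 library.

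**Figure D2:**
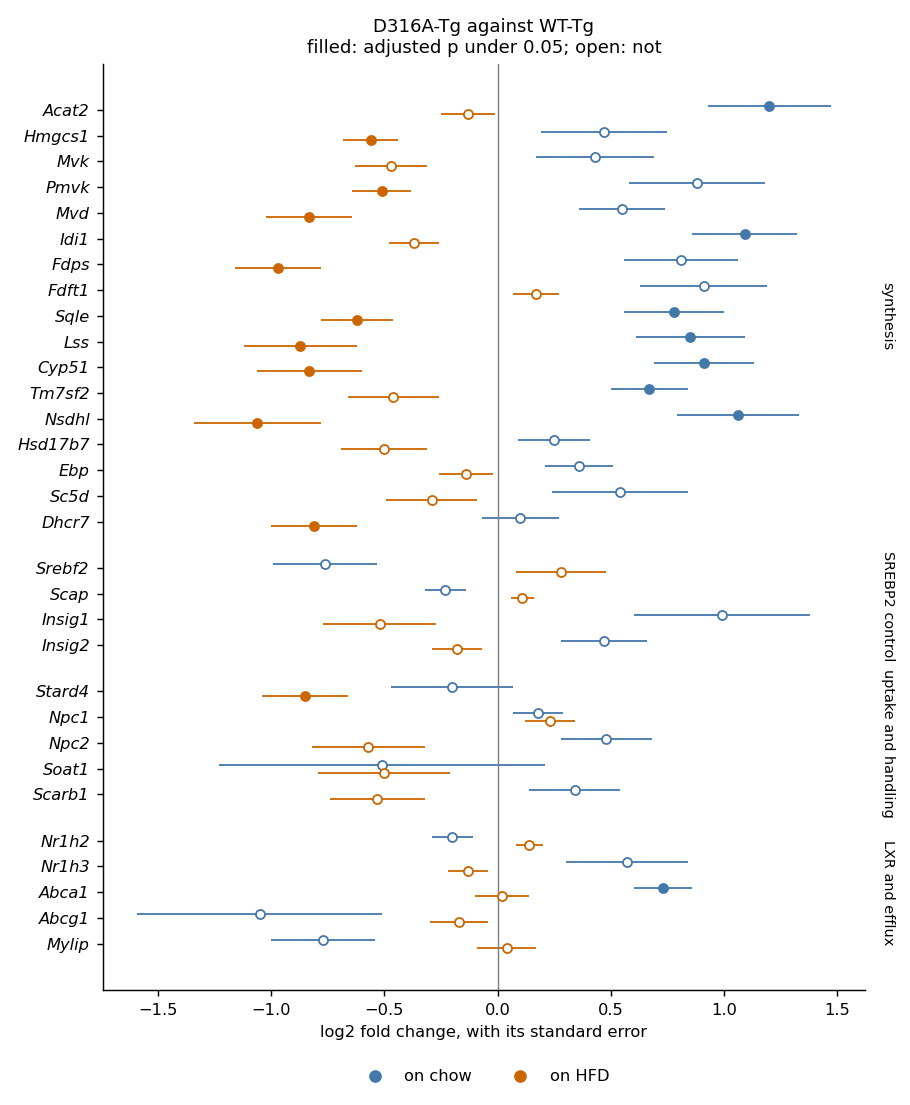
Log2 fold change of D316A-Tg against WT-Tg with its standard error for all 31 genes, on chow (blue) and on HFD (orange); filled points passed an adjusted p of 0.05. Synthesis genes lie to the right of 0 on chow and, apart from Fdft1, to the left on HFD.

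In WT-Tg mice the synthesis genes were higher on HFD than on chow. Of the 31 genes, 18 rose and 4 fell, but 25.9% of 16072 genes tested rose and 34.5% fell in this comparison. Among the synthesis genes 12 of 17 rose and none fell, and their median log2 value was 0.82 beside -0.13 over all genes. Hmgcs1 rose 5.63-fold (log2 2.49, SE 0.23, adjusted p = 4.51e-09), from 105, 171 and 320 CPM on chow to 1010, 1090 and 1310 CPM on HFD, with no overlap. Idi1 rose 4.01-fold (log2 2.00, SE 0.18, adjusted p = 4.42e-09), from 2.58 to 4.82 CPM on chow to 12.3 to 16.8 CPM on HFD. Hsd17b7, a ketosteroid reductase of the same demethylation steps as Nsdhl, rose 3.80-fold, from 6.75 to 8.56 CPM to 23.2 to 33.0 CPM (log2 1.93, SE 0.18, adjusted p = 4.93e-09). No HFD library of these 3 genes came near the chow range. The size for Hmgcs1 moved with the lymphocyte-rich libraries, which were at 105 to 204 CPM on chow: the other libraries were at 288 and 320 CPM on chow and 1010 to 1130 CPM on HFD, and without the lymphocyte-rich ones the log2 value was 1.82 (adjusted p = 4.19e-07).

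Fdps (3.14-fold), Nsdhl (2.72-fold), Lss (2.66-fold), Cyp51 (1.98-fold) and Mvk (1.76-fold) rose as well, each without overlap between the diets. Dhcr7 (1.51-fold) and Mvd (1.37-fold) also rose without overlap, while Sc5d, a sterol desaturase (1.93-fold), and Sqle (1.55-fold) rose with overlap. Of the 17 synthesis genes 10 were higher without overlap, where 17.7% of all genes tested were higher and 16.8% lower without overlap. Acat2, Pmvk, Fdft1, Tm7sf2 and Ebp were not called, with log2 fold changes from -0.29 to 0.42. Of the 22 calls, 18 held without each library in turn. Mvd lost its call without WT-Tg chow 1, 3, 5 or 6 or WT-Tg HFD 2, 4, 5 or 6 (adjusted p up to 0.0999). With the lymphocyte-rich libraries left out 17 genes were called, 14 of them among the 22. In that fit 8 synthesis genes rose and 1 fell, with a synthesis median of 0.61. It kept 2 chow libraries, with muscle scores of 6.5 and 8.32, and 5 HFD libraries, with scores of 0.12 to 3.7. Markers of other cells moved in this comparison too. Lower on HFD were 9 of 10 muscle markers (median log2 -5.25), 5 of 8 T lymphocyte markers (-3.5) and 1 of 10 B lymphocyte markers (-3.4), and higher were 5 of 12 macrophage and 3 of 10 adipocyte markers. With the macrophage and adipocyte scores as covariates, a setting chosen after the data were seen, 11 genes were called, 7 of them among the 22, and the synthesis median was 0.11.

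In D316A-Tg mice the diet difference was mixed. Of the 31 genes, 4 rose and 8 fell, where 17.9% of all genes rose and 19.3% fell. Hmgcs1 rose 2.79-fold (log2 1.48, SE 0.22, adjusted p = 1.13e-05), from 197, 283 and 310 CPM on chow to 600, 754 and 943 CPM on HFD. Hsd17b7 rose 2.29-fold (log2 1.20, SE 0.17, adjusted p = 8.41e-06), from 5.98 to 10.6 CPM to 14.3 to 32.6 CPM, and both genes had no overlap between the diets. Of all genes tested, 7.6% were higher and 8.92% lower without overlap in this comparison. Idi1 rose 1.47-fold (adjusted p = 0.0154), with chow libraries at 5.39 to 11.9 CPM and HFD libraries at 8.61 to 13.4 CPM.

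Acat2 fell 2.31-fold in D316A-Tg (log2 -1.21, SE 0.22, adjusted p = 0.000127), from a median of 183 to 73.4 CPM. Tm7sf2 fell 2.19-fold (log2 -1.13, SE 0.18, adjusted p = 3.7e-05), from 12.9 to 22.6 CPM to 5.56 to 12.6 CPM, with no overlap. Fdft1 (2.03-fold), Pmvk (1.94-fold), Mvd (1.88-fold), Sqle (1.69-fold), Cyp51 (1.68-fold) and Ebp (1.51-fold), an isomerase of the sterol ring, fell too. The synthesis median was -0.60, beside -0.02 over all genes. All but Idi1 among the 12 calls held without each library in turn; Idi1 lost its call without D316A-Tg chow 7 or 10 (adjusted p up to 0.0613). Left without the lymphocyte-rich libraries, with only 2 D316A-Tg HFD libraries remaining, 17 genes were called, 11 of them among the 12. In the same comparison 9 of 10 muscle markers were called higher (median log2 4.70) and 3 of 4 epithelial markers tested lower (-3.17). With the muscle score as a covariate 10 genes were called. With the B lymphocyte and muscle scores together, a setting chosen after the data were seen, 10 were called too. The part of the epithelial markers in the calls was not tested.

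**Figure D3:**
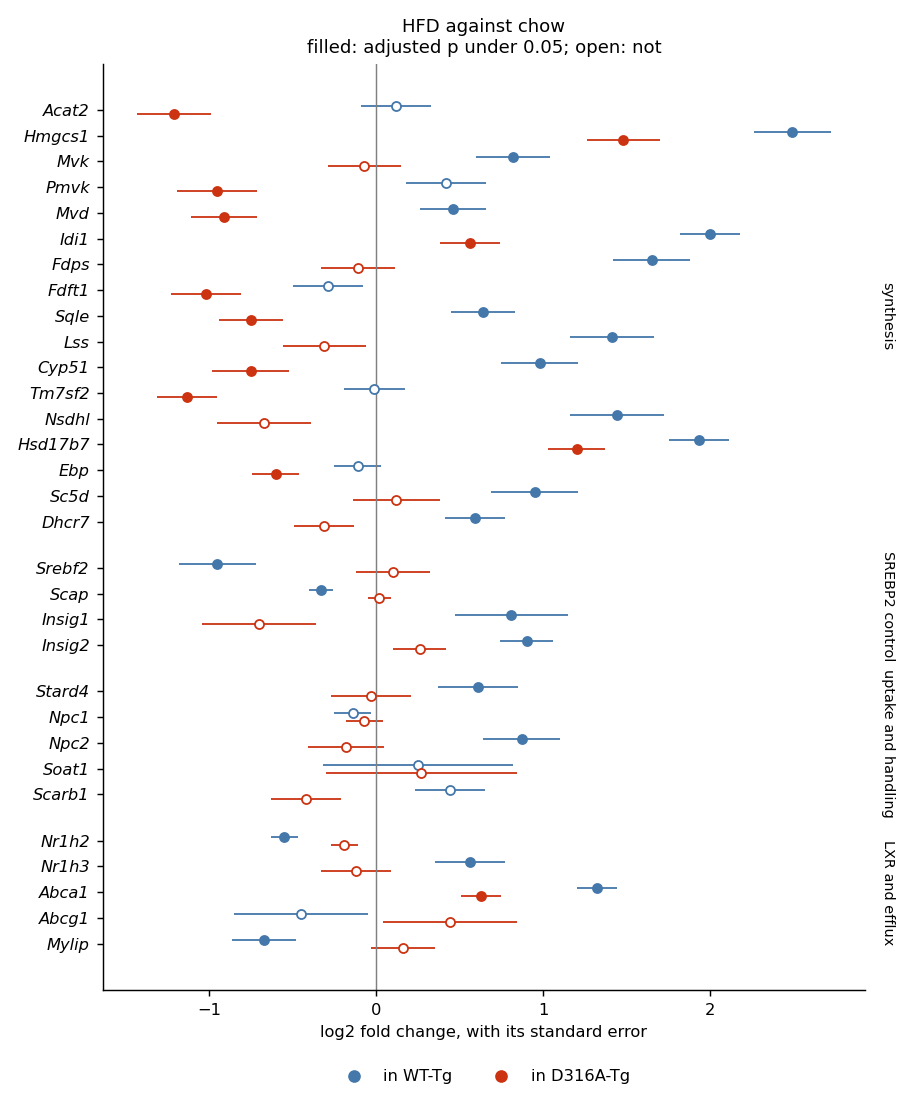
Log2 fold change of HFD against chow with its standard error for all 31 genes, in WT-Tg (blue) and D316A-Tg (red); filled points passed an adjusted p of 0.05. Hmgcs1, Idi1, Hsd17b7 and Abca1 are to the right of 0 in both genotypes, and most other synthesis genes are to the right in WT-Tg and to the left in D316A-Tg.

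The D316A difference itself was tested between the diets. It was lower on HFD than on chow for 16 of the 31 genes and higher for 4, where 6.86% and 6.08% of 16072 genes were so called. Of the 17 synthesis genes 13 were among the 16, and all 17 had a negative value, with a median of -1.33 beside 0.07 over all genes. Nsdhl differed most, by -2.11 on the log2 scale (SE 0.39, adjusted p = 0.00337), followed by Fdps (-1.77, SE 0.32, adjusted p = 0.00335), Cyp51 (-1.73, SE 0.33, adjusted p = 0.00352) and Lss (-1.71, SE 0.35, adjusted p = 0.00512). Idi1 had the lowest adjusted p, 0.00277, at -1.45 (SE 0.25). Mvk, Fdft1, Ebp and Sc5d were not called, with values from -0.89 to -0.49. Of the 20 calls, 12 held without each library in turn; the count was 13 without WT-Tg chow 3 or D316A-Tg chow 9 and 12 without D316A-Tg chow 12. With the lymphocyte-rich libraries left out 7 genes were called, all among the 20, and the synthesis median was -1.0. That fit kept 2 WT-Tg chow and 2 D316A-Tg HFD libraries. With the B lymphocyte score 8 were called (median -0.73), with the muscle score 6 (median -1.22) and with both 1 (median -0.58).

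Levels between genes can be set side by side only per length. As median CPM per kilobase of exon, Hmgcs1 was the highest synthesis gene in WT-Tg chow (37.2), followed closely by Pmvk (36.4) and Acat2 (25.8), and Idi1 the lowest (0.978). In D316A-Tg chow Pmvk (84.5) and Acat2 (71.9) were above Hmgcs1 (61.6). On HFD Hmgcs1 stood far above all others, at 237 in WT-Tg and 164 in D316A-Tg, where Pmvk was at 56.0 and 38.2. Exons of Fdps, Fdft1, Scap, Hmgcs1, Tm7sf2 and Idi1 overlap other annotated genes over 26.7%, 18.3%, 13.2%, 12.1%, 12.1% and 9.2% of their length, and because strand use in counting is not given, their counts are less certain.

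Among the 4 SREBP2 control genes edgeR called none between the genotypes on either diet, with 4 on chow and 1 on HFD at an unadjusted p below 0.05. Srebf2 was at 60.4, 106 and 121 CPM in WT-Tg chow and at 38.8, 50.5 and 79.9 CPM in D316A-Tg chow (log2 -0.76, SE 0.23, adjusted p = 0.0625), and it was called lower under 5 of 10 other settings, DESeq2 among them. On chow its level followed the lymphocyte markers: the 6 lymphocyte-rich libraries lay at 73.0 to 121 CPM and the other 6 at 38.8 to 61.5 CPM. In WT-Tg it fell 1.94-fold from chow to HFD (log2 -0.95, SE 0.23, adjusted p = 0.00117), opposite to the synthesis genes, and so did Scap (1.26-fold, adjusted p = 0.000299). Insig1, itself a target of SREBP2, had its higher medians in D316A-Tg chow and WT-Tg HFD, like the synthesis mean: they were 222, 520, 450 and 248 CPM in WT-Tg chow, D316A-Tg chow, WT-Tg HFD and D316A-Tg HFD. The spread was wide, from 170 to 915 CPM in D316A-Tg chow, and its genotype differences were not called (log2 0.99, SE 0.39, adjusted p = 0.118 on chow; log2 -0.52, SE 0.25, adjusted p = 0.176 on HFD). Its rise from chow to HFD in WT-Tg was 1.75-fold (adjusted p = 0.0432) and lost its call without WT-Tg chow 1, 2, 3 or 4 or WT-Tg HFD 1, 2, 4 or 5. Insig2 rose 1.86-fold in WT-Tg on HFD (log2 0.90, SE 0.16, adjusted p = 5.8e-05), from 37.5, 40.8 and 63.6 CPM to 76.2, 89.8 and 92.7 CPM, without overlap. On chow its lymphocyte-rich libraries were all below the other 6 (37.5 to 47.2 against 59.3 to 81.0 CPM). The other WT-Tg libraries were at 59.3 and 63.6 CPM on chow and at 76.2 to 92.7 CPM on HFD, a smaller rise. In D316A-Tg none of the 4 was called between the diets. The D316A difference on HFD minus that on chow was 1.05 for Srebf2, 0.35 for Scap and -1.51 for Insig1 (adjusted p = 0.0336, 0.0215 and 0.0405); Srebf2 lost that call without 14, Scap without 2 and Insig1 without 15 of the 24 libraries, each left out in turn.

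Of the 5 uptake and handling genes edgeR called none between the genotypes on chow (1 at an unadjusted p below 0.05, median log2 value 0.18) and 1 on HFD (3 at an unadjusted p below 0.05). On HFD 4 of the 5 were below 0, with a median of -0.53 beside 0.01 over all genes. Stard4 was the one called, at 23.7, 33.2 and 36.5 CPM in WT-Tg HFD and 11.0, 16.0 and 24.3 CPM in D316A-Tg HFD (1.80-fold lower, log2 -0.85, SE 0.19, adjusted p = 0.0246); only its highest D316A-Tg library reached the WT-Tg range. On chow it had medians of 20.8 and 18 CPM (log2 -0.20, SE 0.27). In WT-Tg it rose 1.52-fold with HFD (adjusted p = 0.0311), a call lost without WT-Tg chow 4 or 6 or WT-Tg HFD 1, 2 or 5. Npc2, the soluble carrier that lifts cholesterol out of lysosomes, had medians of 487, 783, 1010 and 544 CPM in WT-Tg chow, D316A-Tg chow, WT-Tg HFD and D316A-Tg HFD, and rose 1.82-fold with HFD in WT-Tg (adjusted p = 0.00307). On HFD its genotypes differed by -0.57 on the log2 scale and were not called (SE 0.25, adjusted p = 0.147). Its D316A difference on HFD minus that on chow was -1.04 (SE 0.32, adjusted p = 0.0385), a call lost without 16 of the 24 libraries in turn. On each diet its lymphocyte-rich libraries were all below the other libraries (428 to 558 against 682 to 947 CPM on chow, 434 to 671 against 783 to 1210 CPM on HFD). Npc1, its membrane partner, was called in none of the 5 comparisons, with log2 values from -0.14 to 0.23. Scarb1, the receptor that takes up cholesterol esters from high-density lipoprotein, was not called either, with log2 0.34 on chow and -0.53 on HFD between the genotypes. Soat1, which esterifies cholesterol for storage, was at 16.8 to 36.6 CPM in the lymphocyte-rich chow libraries and at 3.13 to 5.84 CPM in the other chow libraries. It was not called between the genotypes (log2 -0.51, SE 0.72 on chow and -0.50, SE 0.29 on HFD).

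Abca1 was at 109, 136 and 171 CPM in WT-Tg chow, 190, 244 and 262 CPM in D316A-Tg chow, 304, 356 and 382 CPM in WT-Tg HFD and 277, 359 and 416 CPM in D316A-Tg HFD. On chow it rose 1.66-fold in D316A-Tg (log2 0.73, SE 0.13, adjusted p = 0.0164), with no overlap, and this call was kept with the lymphocyte-rich libraries left out (log2 0.68), though not without D316A-Tg chow 7 or 12. On HFD the genotypes overlapped (log2 0.02, SE 0.12, adjusted p = 0.931). From chow to HFD it rose 2.5-fold in WT-Tg (log2 1.32, SE 0.12, adjusted p = 6.78e-09) and 1.54-fold in D316A-Tg (log2 0.63, SE 0.12, adjusted p = 0.000293), each without overlap. The D316A difference was lower on HFD by 0.70 on the log2 scale (-0.70, SE 0.17, adjusted p = 0.0128).

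Abcg1, which passes cholesterol to high-density lipoprotein, varied widely on chow. Its libraries ranged from 19.2 to 121 CPM in WT-Tg chow and from 14 to 60.7 CPM in D316A-Tg chow, and it was called in none of the 5 comparisons (log2 -1.05, SE 0.54 on chow; -0.17, SE 0.13 on HFD). The 6 lymphocyte-rich chow libraries were at 55.9 to 121 CPM and the other 6 at 14 to 22.8 CPM, while the other 7 and the 5 lymphocyte-rich HFD libraries overlapped. Without the lymphocyte-rich libraries Abcg1 was called higher on HFD in D316A-Tg (log2 1.30), with only 2 D316A-Tg HFD libraries left. WT-Tg levels moved the same way: the other WT-Tg libraries were at 19.2 and 22.8 CPM on chow and at 44.1 to 55.5 CPM on HFD. Mylip had medians of 73.3, 36.8, 45.2 and 46.9 CPM in WT-Tg chow, D316A-Tg chow, WT-Tg HFD and D316A-Tg HFD. Its difference on chow missed the threshold (log2 -0.77, SE 0.23, adjusted p = 0.0545), but it was called lower under 7 of 10 other settings, DESeq2 among them. It fell 1.59-fold with HFD in WT-Tg (adjusted p = 0.00441). The receptor genes moved in opposite directions in WT-Tg: Nr1h2 (LXRβ) fell 1.46-fold with HFD without overlap (adjusted p = 3.05e-06), and Nr1h3 (LXRα), the form enriched in fat and macrophages, rose 1.48-fold (adjusted p = 0.0243). Nr1h3 lost that call without WT-Tg chow 1, 3 or 4 or WT-Tg HFD 4, and on chow it was lower in each lymphocyte-rich library (56.5 to 82.3 CPM) than in the other 6 (108 to 177 CPM). Between the genotypes neither receptor gene was called, with Nr1h2 at -0.20 and 0.14 and Nr1h3 at 0.57 and -0.13 (log2, chow and HFD).

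**Figure D4:**
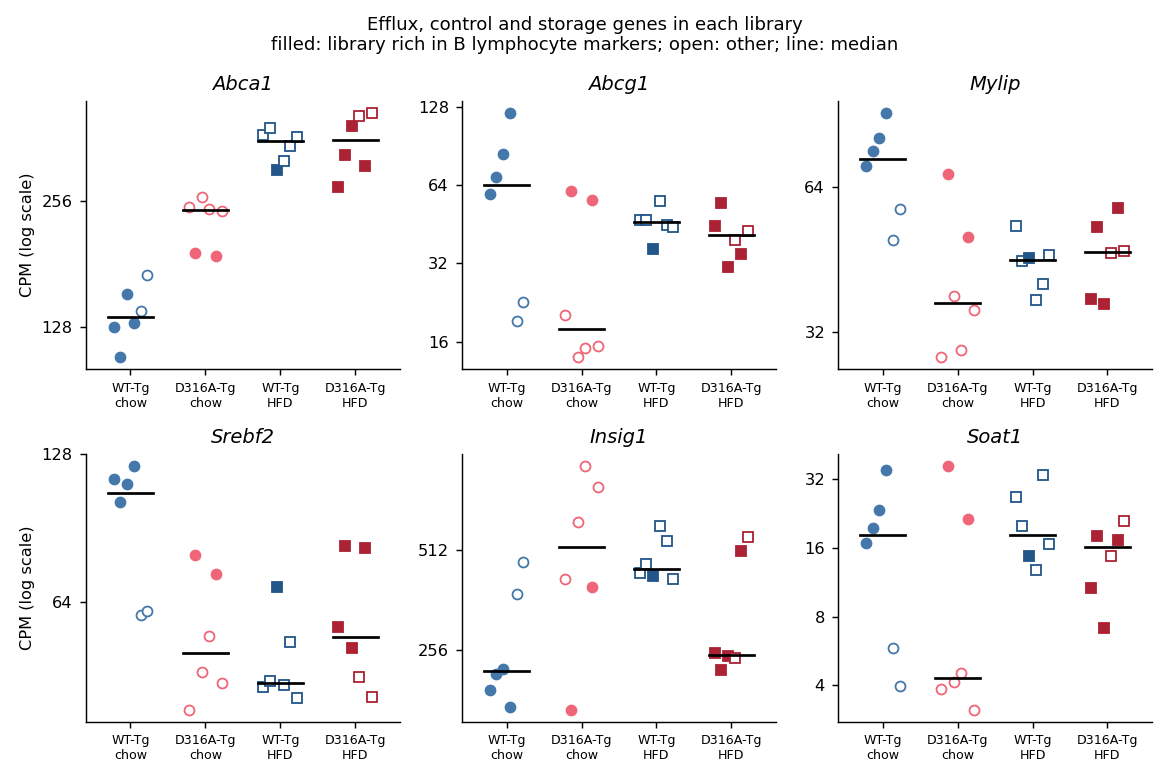
CPM on a log axis for 6 efflux, control and storage genes, 1 symbol per library (circles chow, squares HFD; filled where B lymphocyte markers were high), with the group median as a line. Abca1 steps up from WT-Tg chow to D316A-Tg chow to both HFD groups; on chow the filled symbols of Abcg1, Srebf2 and Soat1 lie above the open ones.

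To set synthesis against efflux in each library, the mean log2 CPM of the 17 synthesis genes and that of the 5 LXR and efflux genes were compared, as a description without a test. The synthesis mean was 4.82 ± 0.28 (SD, n = 6) in WT-Tg chow, 5.5 ± 0.36 in D316A-Tg chow, 5.76 ± 0.12 in WT-Tg HFD and 5.19 ± 0.29 in D316A-Tg HFD. The mean of the LXR and efflux genes, called the efflux mean here, was 6.29 ± 0.21, 6.14 ± 0.13, 6.41 ± 0.08 and 6.40 ± 0.07. Only Abca1 and Abcg1 among these genes are exporters, and values with them alone as efflux genes are given further below. The efflux mean averages genes with values of opposite sign. Between the genotypes on chow, for example, Abca1 had a log2 value of 0.73, Mylip -0.77 and Abcg1 -1.05, and with HFD in WT-Tg Abca1 had 1.32, Nr1h2 -0.55 and Mylip -0.67. Synthesis minus efflux was thus -1.47, -0.63, -0.64 and -1.20 in these 4 groups. Between WT-Tg HFD and D316A-Tg HFD the efflux means differed by -0.01 and the synthesis means by -0.57. In WT-Tg every HFD library (synthesis 5.59 to 5.93) was above every chow library (4.56 to 5.26), and D316A-Tg HFD 12, at 5.75, lay among the WT-Tg HFD libraries.

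The same difference was read within libraries of like lymphocyte content. Among lymphocyte-rich chow libraries synthesis minus efflux was -1.92 to -1.59 in 4 WT-Tg and -1.22 and -1.17 in 2 D316A-Tg libraries, and among the others the 2 WT-Tg libraries were at -0.90 and -0.86 and the 4 D316A-Tg libraries at -0.67 to -0.09. In both strata the D316A-Tg libraries were higher, but the strata were not alike in other cells. The 2 WT-Tg libraries that were not lymphocyte-rich had muscle scores of 6.5 and 8.32, against -0.34 to 3.84 in the 4 D316A-Tg ones. Their adipocyte scores were 11.15 and 11.2, against 11.36 to 11.7. The part of these cells in the difference was not tested. On HFD the 1 lymphocyte-rich WT-Tg library was at -0.67 and the 4 D316A-Tg ones at -1.46 to -1.12, and the others were at -0.78 to -0.43 in 5 WT-Tg and at -1.32 and -0.70 in 2 D316A-Tg libraries. Without the lymphocyte-rich libraries the HFD minus chow difference in WT-Tg shrank from 0.82 to 0.24, with only the 2 WT-Tg chow libraries rich in muscle markers left.

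**Figure D5:**
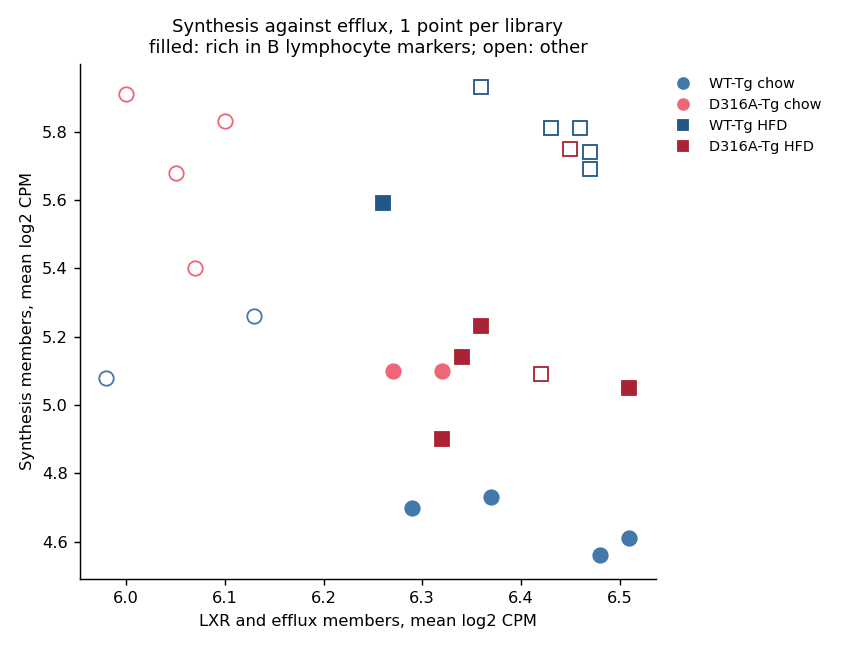
Mean log2 CPM of the 17 synthesis genes (vertical) against that of the 5 LXR and efflux genes (horizontal), 1 point per library, filled where B lymphocyte markers were high. WT-Tg HFD libraries lie at 5.59 to 5.93 on the synthesis axis, lymphocyte-rich WT-Tg chow libraries at 4.56 to 4.73, and the efflux axis spans a narrower range.

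Of 42 further genes of the pathway, 40 were measured. On chow none was called by edgeR (over all genes 5.3% rose and 3.25% fell) and 9 had an unadjusted p below 0.05. On HFD 3 rose in D316A-Tg and 1 fell, where 4.51% and 3.96% of all genes did. Cyp27a1, a mitochondrial sterol hydroxylase whose products can bind LXR, was at 25.0, 30.8 and 33.1 CPM in WT-Tg HFD and 34.5, 43.8 and 56.7 CPM in D316A-Tg HFD, without overlap (1.47-fold, adjusted p = 0.031). Abcg4, a sterol exporter, rose 3.18-fold from a median of 0.745 to 2.55 CPM, and Erlin1, which helps to restrain SREBP activation, 1.27-fold. Nus1, a partner of dolichol synthesis that stabilises Npc2, fell 1.56-fold. Refits with marker scores or fewer libraries are not reported for these 40 genes. The part of other cells in their calls was not tested. With HFD 16 rose and 9 fell in WT-Tg, where 25.9% and 34.5% of all genes did. Among them were Vldlr, a lipoprotein receptor (3.95-fold), Nus1 (2.47-fold) and the lysosomal membrane protein Scarb2 (1.70-fold), which rose, while Rxrb, a partner of LXR, fell 1.51-fold. In D316A-Tg 8 rose and 1 fell (17.9% and 19.3% over all genes), with the lipid transfer protein Pltp, an LXR target, 2.97-fold higher and the apolipoprotein gene Apoc1 2.90-fold lower. The D316A difference changed between the diets for 7 of the 40, lower on HFD for 5 and higher for 2, beside 6.86% and 6.08% of all genes.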

How the data were processed

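The authors deposited whole-number read counts per gene in 1 table of 12 chow and 1 of 12 HFD libraries. The mm10 build, STAR 2.4.1, bcl2fastq, DESeq2 and FastQC are listed in the submitters' processing notes, and the library kit was stranded per the labels. How reads were counted, with which annotation and whether by strand, is not given in the sources used here. Positions, exon lengths and exon overlaps were taken from GENCODE on GRCm38.

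Differences in these counts were tested in edgeR 4.0.16 (R 4.3.3) by quasi-likelihood, with TMM scaling and a filter on low counts in the groups compared. The D316A comparisons were fitted within a diet, the others on all 24 libraries and the genes in both tables. A call needed p below 0.05 after Benjamini-Hochberg adjustment across every gene tested. CPM is TMM-scaled, and log2 CPM used a prior count of 2. Marker scores are mean log2 CPM, and a library with a B lymphocyte score above 3 was called lymphocyte-rich. Replicates of a group differed by at least 14.4 chi-square per degree of freedom, so none was treated as a copy. In the shallowest library 1 count was 0.0754 CPM, so the spread between libraries limits precision. The code was tested on simulated data.

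The members, lists, tests and the score limit of 3 were chosen with earlier results of these data known. Up to 8 synthesis and 6 other members with the lowest adjusted p per comparison were to be named with values; values of other members were added after they were seen. Alternatives were RLE scaling, DESeq2 1.42.0, other filters, marker covariates, other sets of libraries, a replicate block and leaving out each library.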

Additional observations from a re-analysis of the deposited data

Results flagged for a closer look

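A library stood apart from the other 5 of its group in 6 of 128 sets of 6 values examined (log2 CPM of each gene, and synthesis minus efflux, in each group), and chance sets apart about 1 in 20. D316A-Tg HFD 12 was the high library for Fdps (66.0 CPM), Lss (105 CPM) and Nsdhl (115 CPM), and its 3 values lay inside the WT-Tg HFD ranges. As mean log2 CPM, the same library had the lowest muscle markers of its group (3.59, the other 5 at 5.11 to 9.55), the highest endothelial markers (6.22 against 5.30 to 5.93) and the highest macrophage markers (6.48 against 4.70 to 6.07), and their part in its values was not tested. In WT-Tg HFD the single libraries were number 3 for Nsdhl (77.2 CPM, low), number 4 for Acat2 (102 CPM, high) and number 1 for Fdft1 (32.9 CPM, low).

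The D316A difference was not the same on the 2 diets for 20 genes, by the test of that difference. On the log2 scale (HFD minus chow) the synthesis genes had -1.33 for Acat2, -1.01 for Hmgcs1, -1.38 for Pmvk, -1.37 for Mvd, -1.45 for Idi1, -1.77 for Fdps and -1.39 for Sqle. The later steps had -1.71 for Lss, -1.73 for Cyp51, -1.12 for Tm7sf2, -2.11 for Nsdhl, -0.73 for Hsd17b7 and -0.90 for Dhcr7. Outside synthesis the values were 1.05 for Srebf2, 0.35 for Scap, -1.51 for Insig1, -1.04 for Npc2, 0.36 for Nr1h2, -0.70 for Abca1 and 0.83 for Mylip. Calls of Hmgcs1, Hsd17b7, Srebf2, Scap, Insig1, Npc2, Nr1h2 and Mylip were lost without 7, 15, 14, 2, 15, 16, 12 and 15 of the 24 libraries left out in turn.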

How the results depend on the processing

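Of 2215 recomputed values of single genes, 1705 kept direction and side of the threshold, 444 lost and 51 gained a call, and 15 changed sign. On chow (8 genes called) 14 were called by DESeq2, 17 with all 24 libraries in 1 fit, 4 without a filter and 2 with the muscle score; leaving out 1 library gave 0 to 14. On HFD (10 called) 6 were called without a filter and 0 with the B lymphocyte score, the muscle score, both, the macrophage and adipocyte scores, or without lymphocyte-rich libraries; leaving out 1 library gave 2 to 18. DESeq2 called 12 there. With the macrophage and adipocyte scores (added after the data were seen) the diet counts were 11 (from 22, WT-Tg) and 20 (from 12, D316A-Tg); leaving out 1 library gave 19 to 23 and 12 to 17. For the difference between diets (20 called) the counts were 13 without a filter, 8 with the B lymphocyte score, 6 with the muscle score, 1 with both (added), 12 with the macrophage and adipocyte scores (added) and 7 without lymphocyte-rich libraries; leaving out 1 library gave 12 to 27. RLE scaling and a mean count of at least 50 kept all 5 counts within 1.5 times. Shares of all genes called under these settings are not given, so the counts are not set against a background.

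Synthesis minus efflux moved by over 1 SD with Abca1 and Abcg1 alone as efflux genes. The values went from 0.82 to 0.36 (diet, WT-Tg) and from -0.57 to -0.97 (diet, D316A-Tg). Without lymphocyte-rich libraries, which left 2 WT-Tg chow libraries, the diet value in WT-Tg also moved by over 1 SD, to 0.24. Leaving out 1 library gave 0.73 to 0.96 for genotype on chow, -0.66 to -0.51 on HFD, 0.73 to 0.94 for diet in WT-Tg, and for diet in D316A-Tg -0.69 to -0.46.

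The signs that changed were, between genotypes on HFD with both the B lymphocyte and muscle scores, Nsdhl 0.12, Pmvk 0.01, Lss 0.11, Cyp51 0.15, Scarb1 0.43, Npc2 0.50, Nr1h2 -0.11 and Insig1 0.32. With the muscle score alone they were Nr1h2 -0.04 and Insig1 0.15, and with the macrophage and adipocyte scores Scarb1 0.02. That last setting gave Npc2 -0.26 and Insig1 -0.09 for diet in WT-Tg. Insig1 was 0.06 for diet in D316A-Tg with both scores, and Nr1h2 -0.03 for the difference between diets without lymphocyte-rich libraries. The cause was not tested.

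Libraries with the same number on both diets are of different ages. Their deviations correlated from -0.47 to 0.63, above 0.1 for 7 of 12 numbers, and 4 of 12 correlated best with their own number. These correlations do not settle whether the number pairs libraries, and the main fits did not use it. With it as a replicate block 21, 13 and 23 genes were called (diet in WT-Tg, diet in D316A-Tg, difference). The genotypes share no numbers, so no block could be fitted within a diet.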
